A study of Mus musculus with 8 samples.

Results

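B cell follicle genes were followed across mouse colon and colon tumors, namely Fcmr, Cxcr5, Cxcl13, Cd22, Cd79a, Cd79b, Ms4a1, Blk and Prkcb. All probes carrying one of these symbols, older or current, were taken, which gave 16 probes for 9 genes out of 25697 probes and 16593 named genes on the array. Of these, 13 probes of 8 genes were above background on at least 2 of the 8 arrays and were tested, along with 13327 probes of 9341 named genes in the whole series. The genes were chosen by their level in tumors over normal colon in these same arrays, so their tumor minus normal differences are given as a description, with no test.

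The arrays were Illumina MouseRef-8 v2 bead arrays hybridised with Cy3-labelled total RNA. There were 4 groups of 2 arrays, labelled WT-N (normal colon, wild-type C57BL/6 mice), WT-T (colon tumors, wild type), C12-N (normal colon, caspase-12 deficient) and C12-T (colon tumors, caspase-12 deficient). Caspase-12 is a member of the inflammatory caspase family, and the design sets tumor against normal tissue with and without it. The sources used here do not give the animals' age or number, the cause of the tumors, the allele of the deficient mice or whether the arrays of a group came from separate animals. The p-values therefore rest on a spread between arrays that may be technical.

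B cells of the gut wall gather in follicles, either in isolated lymphoid follicles or in larger patches. Stromal cells of the follicle secrete the chemokine CXCL13, and B cells carrying its receptor CXCR5 move towards it. On the B cell, the antigen receptor signals through the paired chains CD79A and CD79B, which Src family kinases such as BLK phosphorylate. Protein kinase C beta, made from Prkcb, carries the signal on to NF-kappaB, and CD22 is an inhibitory lectin that dampens it. FCMR binds the Fc part of IgM, and CD20, made from Ms4a1, is a surface protein of mature B cells.

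Promoter sequence was at hand for 5 of the 9 members, in RefSeq's table for GRCm38.p6, and the stretches that hold a motif known from B cell or tissue-restricted promoters are shown, with that of Fcmr, the member with the largest differences, beside them. The 250 bases before each start site were searched on both strands for the octamer ATGCAAAT, the ETS motif AGGAAGT, the TATA box TATAAA, the EBF1 palindrome and a loose form of the NF-kappaB motif. No matches to different motifs overlapped in these members. Capitals mark a match to any motif but that of NF-kappaB. The stretches run 5′ to 3′ from base 200 to base 31 before the start site, except for Cd22, where 30 bases around the match are shown because the start site in the table lies within the gene.
Fcmr (chr1:130865577-130865746, + strand): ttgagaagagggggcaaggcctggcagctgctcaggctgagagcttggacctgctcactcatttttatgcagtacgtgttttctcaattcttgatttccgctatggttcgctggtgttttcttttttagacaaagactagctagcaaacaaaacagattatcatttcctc
Cxcl13 (chr5:95956739-95956908, + strand): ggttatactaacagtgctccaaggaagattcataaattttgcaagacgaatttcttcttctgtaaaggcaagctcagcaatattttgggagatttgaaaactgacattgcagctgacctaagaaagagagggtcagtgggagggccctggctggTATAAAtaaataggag
Cd22 (chr7:30879058-30879087, - strand): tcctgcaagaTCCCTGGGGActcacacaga
Cd79a (chr7:24897297-24897466, + strand): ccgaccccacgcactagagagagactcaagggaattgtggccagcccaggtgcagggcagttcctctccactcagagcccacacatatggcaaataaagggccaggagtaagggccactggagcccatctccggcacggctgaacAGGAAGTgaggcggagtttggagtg
Prkcb (chr7:122288925-122289094, + strand): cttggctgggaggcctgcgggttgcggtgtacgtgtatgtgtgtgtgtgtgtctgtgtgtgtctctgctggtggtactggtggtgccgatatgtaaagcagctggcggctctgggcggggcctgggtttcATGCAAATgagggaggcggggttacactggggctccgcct
The octamer stood in the Prkcb stretch only, and 1.61% of 27025 promoters of the same length held it. The EBF1 palindrome stood in that of Cd22 and in 0.788% of all promoters. The ETS motif stood in that of Cd79a and in 7.80% of promoters, and the TATA box in that of Cxcl13 and in 13.0%. The NF-kappaB motif stood in 4 of the 5 members and in 45.4% of promoters, a share that sets none of them apart.

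The arrays had similar mean intensities, from 1112.5 to 1181.5, and between 43.7% and 49.1% of probes were above background on each. Replicates correlated at 0.976 in WT-N, 0.976 in C12-N, 0.945 in WT-T and 0.938 in C12-T across the tested probes. The probe of Casp12, the targeted gene, read 5.84 and 5.83 log2 units in WT-N and 6.50 and 7.21 in C12-N. In tumors it read 5.73 and 5.88 in WT-T and 6.97 and 5.96 in C12-T. The lowest signal above background was 6.90 and 6.79 in WT-N and 6.38 and 6.71 in WT-T. No wild-type array was thus above background for this probe, so it could not show a fall. Its mean of both tissues was 0.84 higher in the arrays labelled deficient (limma adjusted p = 0.0699), set against background signal in wild type. Where that probe lies relative to the deleted part is not known here, so the genotype is used as labelled and the groups are called C12 and wild type. Levels below are log2 intensities after background correction and quantile normalisation, and levels of different probes are not set against each other. A detection p under 0.01 was taken as above background, and "at least" marks a fold taken against the lowest signal above background in a group where the probe was above background on no array.

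The receptor for IgM showed the widest range of any member. Fcmr (probe ILMN_1221820) read 6.91 and 8.21 in WT-N, 5.19 and 5.01 in C12-N, 10.85 and 11.74 in WT-T, and 8.91 and 8.52 in C12-T. Each group held a band of its own, with no overlap, and C12-N was above background on neither array. Tumors stood 3.73 log2 units above normal colon in wild type (SE 0.46, n = 2 arrays a group). In C12 the log2 difference was of similar size, 3.62 (SE 0.46), though with C12-N below background the fold is only bounded, at 3.73-fold or more.

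The receptor and chemokine that place B cells in a follicle stood high in WT-T, with C12-T closer to normal colon. Cxcr5 (ILMN_2990494, the brightest of its 3 probes) read 5.60 and 6.32 in WT-N, 5.78 and 5.40 in C12-N, 8.36 and 8.83 in WT-T, and 6.55 and 5.96 in C12-T. Only 3 arrays were above background, both of WT-T and 1 of C12-T, and the normal groups overlapped. Wild-type tumors were at least 3.37-fold above wild-type normal colon (log2 difference 2.64, SE 0.35). In C12 the log2 difference was 0.66 (SE 0.35), too close to background for a fold. The other Cxcr5 probes, ILMN_1219316 and ILMN_2990502, were above background on the WT-T arrays alone, with wild-type differences of 1.94 and 2.17 and C12 differences of 0.01 and 0.27.

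Cxcl13 (ILMN_2760019), the ligand of CXCR5, was above background on all 8 arrays. It read 7.90 and 9.46 in WT-N, 8.81 and 8.60 in C12-N, 10.82 and 10.92 in WT-T, and 9.50 and 9.04 in C12-T. The C12-N arrays lay between the WT-N arrays, WT-T stood above all others, and C12-T lay between WT-T and C12-N. The tumor minus normal difference was 2.19 (SE 0.47) in wild type and 0.57 (SE 0.47) in C12.

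The signalling chains of the antigen receptor had higher levels in tumors of either genotype. Cd79a (ILMN_1246266) read 6.15 and 7.04 in WT-N, 5.84 and 5.43 in C12-N, 7.93 and 9.23 in WT-T, and 6.73 and 7.31 in C12-T. Its tumor arrays lay above the normal arrays of the same genotype, by 1.99 (SE 0.49) in wild type and at least 1.16-fold in C12 (log2 difference 1.38), and C12-T straddled the upper WT-N array. Cd79b was measured by a pair of probes. The brighter, ILMN_2610822, read 7.51 and 8.63 in WT-N, 6.65 and 6.57 in C12-N, 9.94 and 10.72 in WT-T, and 8.91 and 8.60 in C12-T. Its tumor arrays were higher by log2 differences of 2.26 in wild type (SE 0.41) and 2.15 in C12 (SE 0.41, at least 3.85-fold). The lower C12-T array lay just under the upper WT-N array. The dimmer, ILMN_2661523, had a larger difference in wild type (2.89) and a smaller one in C12 (1.55, at least 1.08-fold), so the probes disagreed on how the tumor differences of the genotypes compare.

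For the kinase and the inhibitory receptor the group means were also highest in WT-T. Blk (ILMN_2976441), a Src family kinase, read 4.95 and 6.53 in WT-N, 5.05 and 4.93 in C12-N, 8.53 and 8.77 in WT-T, and 6.82 and 6.38 in C12-T. It was above background on 3 arrays, both of WT-T and 1 of C12-T, and the upper WT-N array lay between the C12-T arrays. Wild-type tumors were at least 3.50-fold above normal colon (log2 difference 2.91, SE 0.47), while the C12 difference of 1.61 (SE 0.47) allowed no fold. A second Blk probe, ILMN_2976440, differed by 1.86 in wild type and 0.62 in C12, and the remaining one, ILMN_2697505, was above background nowhere.

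Cd22 (ILMN_3159170), the inhibitory lectin, read 5.85 and 6.42 in WT-N, 5.51 and 5.53 in C12-N, 7.59 and 8.17 in WT-T, and 6.71 and 6.52 in C12-T. All tumor arrays and no normal array were above background, and the groups did not overlap. Wild-type tumors were at least 2.05-fold above normal colon (log2 difference 1.75, SE 0.29). The C12 log2 difference was 1.09 (SE 0.29), too close to background for a fold. A second probe, ILMN_1221913, was above background in WT-T alone, with differences of 1.92 and 0.34, and ILMN_3079866 was above background nowhere.

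Prkcb (ILMN_1225085), whose promoter stretch holds the octamer, read 7.98 and 8.66 in WT-N, 8.65 and 8.46 in C12-N, 10.94 and 10.48 in WT-T, and 9.29 and 9.92 in C12-T. It was above background on every array, its normal groups overlapped and its tumor groups did not. The tumor minus normal difference was 2.39 (SE 0.33) in wild type and 1.05 (SE 0.33) in C12. Ms4a1 (ILMN_2690194), the gene of CD20, was above background on no array, with levels from 5.58 to 6.46, and was not tested. The level of this defining B cell marker thus gave only an upper bound in every group.

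**Figure D1:**
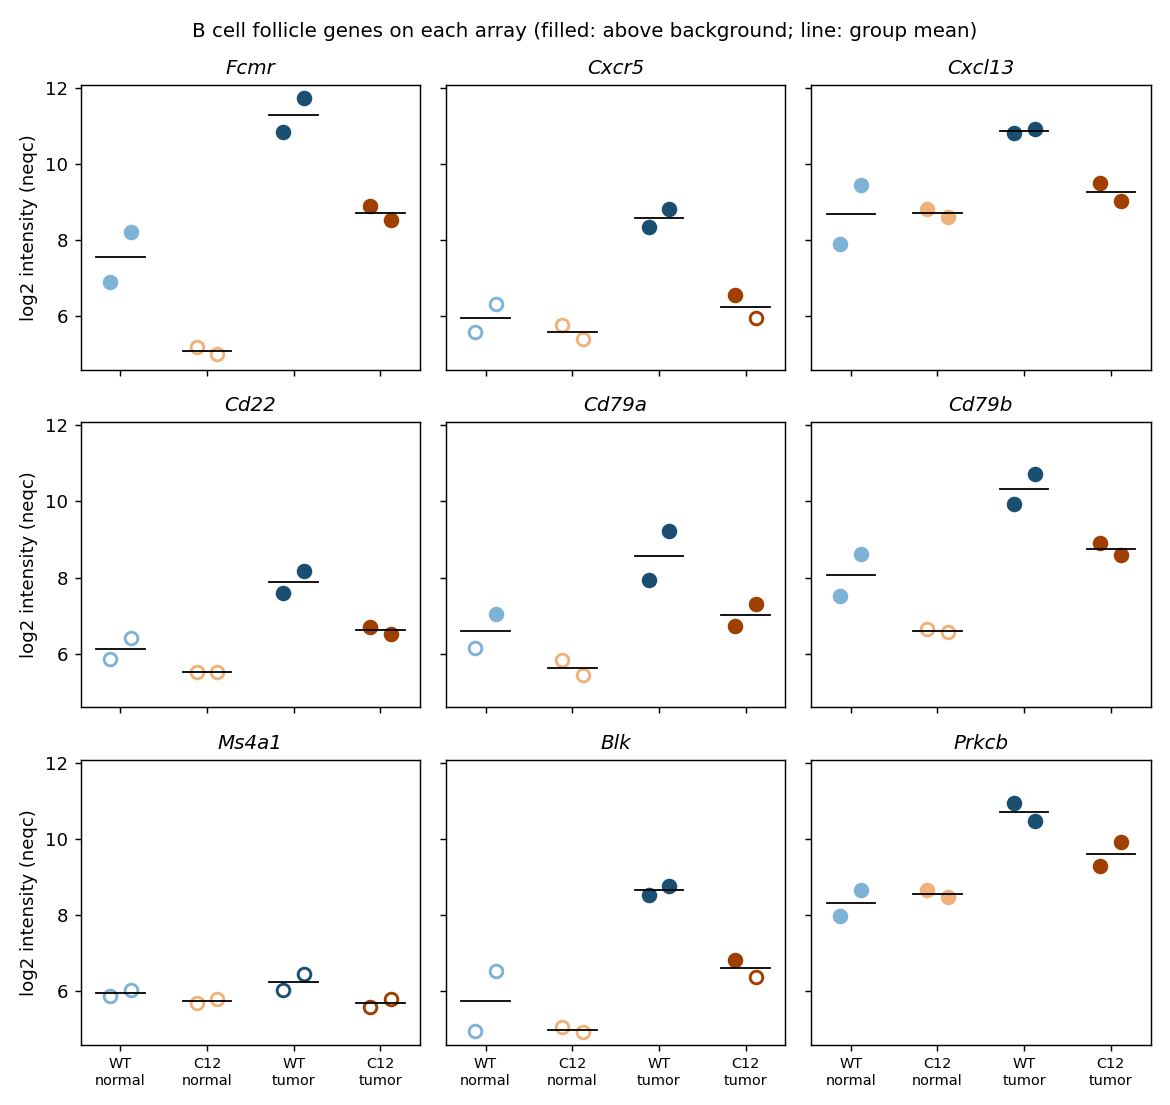
Each panel shows 1 gene by its brightest tested probe (Ms4a1 by its only probe), with 1 point an array for the 4 groups and log2 intensity on the y axis; filled points are above background, open points are not, and lines are group means. Fcmr runs from 5.01 in C12-N to 11.74 in WT-T, WT-T has the highest mean in every panel, and Ms4a1 is open throughout.

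Over the 8 tested members the median tumor minus normal difference was 2.33 in wild type, with a range from 1.75 to 3.73, against 0.00 over all genes tested. In C12 it was 1.24, from 0.57 to 3.62, against 0.00 over all genes. Both tumor arrays lay above both normal arrays for 8 of 8 members in wild type, as for 22.7% of all genes tested, and for 8 of 8 in C12, as for 31.8%. These counts describe how the genes were chosen, and several members passed the filter only because their tumors were bright. The wild-type and C12 differences use separate arrays. In total tissue RNA, fewer B cells and less RNA per cell cannot be told apart.

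Members were tested only for genotype averaged over both tissues, a different contrast from the tumor minus normal differences that chose them. They were picked with earlier results of these data known, so the calls are not independent of the choice. For Cxcr5, Blk and Cd22 no normal array was above background, so choosing genes bright in WT-T can itself lower this average. Here 6 of the 8 tested members, Fcmr, Cxcr5, Cd22, Cd79a, Cd79b and Blk, were lower in C12 than in wild type (limma, Benjamini-Hochberg over all probes), where 8.11% of all genes tested were called lower and 6.96% higher. Cxcr5 and Blk passed the filter through 3 tumor arrays, of which 2 were WT-T, and the count is therefore not independent of the filter. The members above background on all 8 arrays, Cxcl13 and Prkcb, did not pass the threshold.

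Fcmr had the largest difference of the members, with a log2 difference of -2.52 as the mean of both tissues (SE 0.33, limma adjusted p = 0.00572). It was lower in C12 in both tissues, with log2 differences of -2.46 in normal colon (at least 1.68-fold) and -2.58 in tumors. Cd79b followed at -1.52 (SE 0.29, limma adjusted p = 0.0164), and its dimmer probe at -2.11 (limma adjusted p = 0.0108). Its log2 differences were -1.46 in normal colon, at least 2.39-fold, and -1.57 in tumors. For Fcmr and Cd79b, as for Cd22 and Cd79a, all C12 arrays lay below the wild-type arrays of the same tissue. Taken 1 tissue at a time, so did 24.3% of all genes tested in normal colon and 29.1% in tumors.

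Cxcr5 differed by -1.36 (SE 0.24, limma adjusted p = 0.0141). Its other probes differed by -0.93 and -1.10, but they were above background on the WT-T arrays alone and entered the test through them, so they add no separate evidence. Its difference in tumors was -2.34, while in normal colon both groups were below background. Blk differed by -1.40 (SE 0.33, limma adjusted p = 0.0301), with -2.05 in tumors and both normal groups below background. Cd22 differed by -0.94 (SE 0.21, limma adjusted p = 0.0242). Its second probe differed by -0.93 and likewise entered the test through the WT-T arrays alone. Cd79a differed by -1.26 (SE 0.34, limma adjusted p = 0.0461), close to the threshold. For Cxcr5, Blk and Cd22 the measured part of the difference lay in tumors, the tissue where their probes were above background.

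Cxcl13 differed by -0.78 (SE 0.33, limma adjusted p = 0.143), with 0.03 in normal colon and -1.60 in tumors. Prkcb differed by -0.43 (SE 0.24, limma adjusted p = 0.241), with 0.24 in normal colon and -1.10 in tumors. For these the normal groups overlapped and the C12-T arrays lay below the WT-T arrays, and the average of both tissues does not test the difference within tumors.

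**Figure D2:**
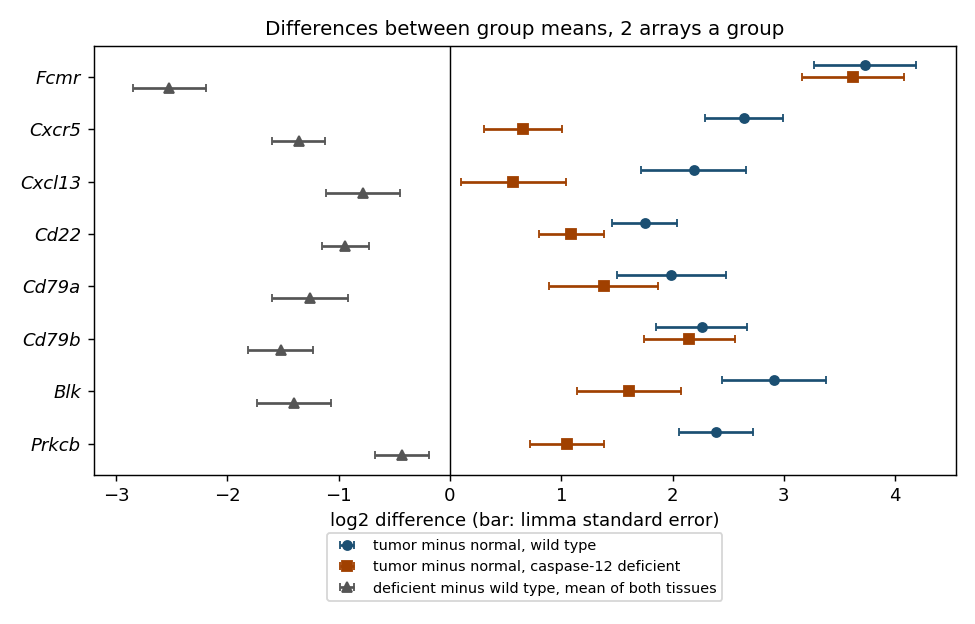
For each tested member the x axis gives 3 log2 differences with their limma standard errors as bars: tumor minus normal in wild type (circles), tumor minus normal in C12 (squares) and C12 minus wild type averaged over both tissues (triangles). Tumor differences run from 0.57 to 3.73, all above 0, and the genotype differences from -2.52 to -0.43, all below it.

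Within a tissue the members are described only. Both C12-T arrays lay below both WT-T arrays for 8 of 8 members, as for 29.1% of all genes tested. In normal colon both C12-N arrays lay below both WT-N arrays for 4 of 8, Fcmr, Cd22, Cd79a and Cd79b, as for 24.3% of genes. The median C12 minus wild type difference was -0.68 in normal colon and -1.58 in tumors. Averaged over both tissues it was -1.31, against 0.06 over all genes tested. In normal colon Cxcr5, Cd22 and Blk were above background on no array, and Cd79a on WT-N2 alone. The normal colon count and median therefore rest partly on background signal. WT-T2 was the highest array for 7 of the 8 members, and WT-T1 for Prkcb.

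The calls differed in how far they rested on 1 array. Fcmr was called in 16 of 16 alternatives and Cxcr5 in 15, being lost without C12-N2. Cd79b was called in 14, being lost without C12-N1 or without C12-N2. Cd22 was called in 10 and Blk in 9, and Cd79a in only 4 of 16. Leaving out C12-N1 left 2 of the 6 calls, leaving out C12-N2 left 1 (Fcmr), and leaving out WT-T2 or C12-T2 left 3. Cxcl13 was called in 1 of 17 alternatives, without WT-N1 (log2 difference -1.16), and Prkcb in none of 17, where its lowest limma adjusted p was 0.149. The difference was negative for all 8 members in every alternative in which they were tested.

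**Figure D3:**
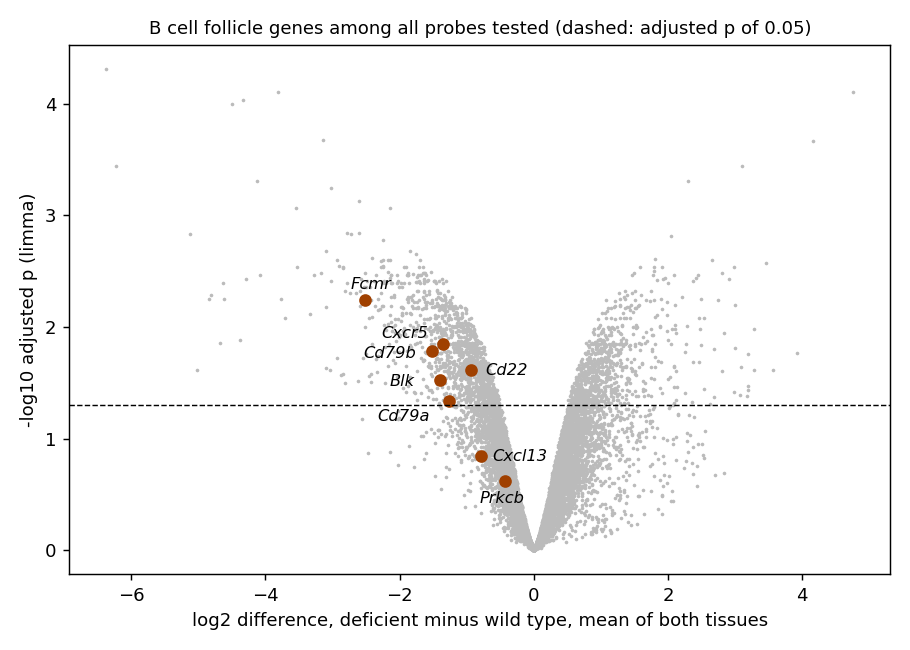
Grey points are all probes tested, with the log2 difference C12 minus wild type averaged over both tissues on the x axis and -log10 of the limma adjusted p on the y axis; the brightest probe of each tested member is marked. The 6 called members lie above the dashed line on the left side, Fcmr farthest out at -2.52, with Cxcl13 and Prkcb below it.

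The wild-type normal arrays were not alike in these genes. WT-N2 exceeded WT-N1 for 8 of 8 members, by 0.58 (Cd22) to 1.58 (Blk), with a median of 1.00. In C12-N the same difference was small, from -0.41 to 0.02, and in WT-T it ran from -0.46 to 1.30. Some other leukocyte lists moved with it: mean levels on WT-N1 and WT-N2 were 6.27 and 7.56 for 12 T cell genes, 9.07 and 10.19 for 6 pan-leukocyte genes, 8.72 and 9.86 for 11 MHC class II genes, and 9.46 and 10.36 for 6 plasma cell genes. The mean of 6 macrophage and dendritic cell genes hardly differed, at 10.11 and 10.25, and that of 7 neutrophil genes was lower on WT-N2, at 9.29 and 8.56. The part of cell content in the normal colon values of the members was not tested.

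Other genes of B cells were taken from lists of surface and signalling proteins, transcription factors, germinal centre genes and plasma cell genes, 65 in all, of which 54 had a probe and 40 were tested. In wild-type tumors against normal colon none was called, as for 0% of all genes tested, while 12 of the 40 had an unadjusted p under 0.05 and 1154 of all 13327 probes did (limma). Their median difference was 0.40. The highest were Tnfrsf13c, the receptor for the survival factor BAFF (log2 difference 2.85, at least 2.98-fold, limma adjusted p = 0.156), Fcer2a, the low-affinity IgE receptor of follicular B cells (2.35, at least 1.98-fold, limma adjusted p = 0.14), and Fcrla (2.33, limma adjusted p = 0.514).

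In C12 tumors against normal colon 10 of the 40 rose and 0 fell, where 9.43% of all genes rose and 10.5% fell (limma), with a median of 0.77. The 10 were Cd40, Fcgr2b, Btk, Plcg2, Dok3, Inpp5d, Vav1, Bcl11a, Bcl6 and Cxcr4. Several of these also act in myeloid or T cells, such as Vav1, a guanine nucleotide exchange factor (1.51, SE 0.23, limma adjusted p = 0.00603), Inpp5d, the lipid phosphatase SHIP1 (1.40), and Cxcr4, the receptor for CXCL12 (log2 difference 2.09, at least 2.55-fold, limma adjusted p = 0.00601). Btk, the kinase downstream of the B cell receptor, rose by 1.03 (SE 0.28, limma adjusted p = 0.0422). Vav1 and Cxcr4 were called in every alternative that tested them. The count fell to 4 without C12-N1, to 2 without C12-N2, to 3 without C12-T1 and to 5 without C12-T2.

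Averaged over both tissues, 5 of the 40 were lower in C12 and 1 was higher, with a median of -0.33. The lower genes were Pou2af1, the octamer-binding coactivator of B cells (-1.56, SE 0.39, limma adjusted p = 0.0365), Tnfrsf13c (-1.37, SE 0.34, limma adjusted p = 0.0348), Blnk, an adaptor of the B cell receptor (-1.19, SE 0.23, limma adjusted p = 0.0168), Fcer2a (-1.01, SE 0.26, limma adjusted p = 0.0367) and Foxo1 (-0.68, SE 0.15, limma adjusted p = 0.0262). The higher gene was Ptpn6, the phosphatase SHP-1 (0.75, SE 0.21, limma adjusted p = 0.0466). Their share, 5 of 40, stood beside 8.11% of all genes. Tnfrsf13c and Fcer2a were above background on the WT-T arrays alone and passed the filter through them, so the count is not independent of the filter. Of the calls, that of Blnk held in 15 of 17 alternatives and that of Ptpn6 in 7 of 17. The count of 6 fell to 0 without WT-N2, to 2 without C12-N1 or WT-T1, to 1 without C12-N2 or WT-T2, and to 3 without C12-T1 or C12-T2.

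Tnfrsf13c showed the members' pattern array by array. It read 4.86 and 6.28 in WT-N, 5.10 and 5.00 in C12-N, 7.95 and 8.89 in WT-T, and 6.12 and 6.25 in C12-T. It was above background in WT-T alone, so its level in the other groups is a bound. Blnk differed in kind: it read 10.45 and 10.73 in WT-N, 10.02 and 9.11 in C12-N, 10.42 and 10.76 in WT-T, and 9.18 and 9.29 in C12-T. Its wild-type groups lay at the same level in tumor and normal tissue, and both C12 groups lay below them.

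In tumors alone, 4 of the 40 were lower in C12 (Fcer2a, Blnk, Tnfrsf13c and Foxo1) and 1 was higher (Id3, an inhibitor of E proteins, by 0.80), against 9.09% of all genes lower and 8.54% higher (limma). Fcer2a and Tnfrsf13c passed the filter through the WT-T arrays alone, the group in which they were then called higher. This count is therefore not independent of the filter, and with either WT-T array left out these genes were not tested. The count of 5 fell to 0 without WT-T1 or WT-T2 and to 2 without C12-T1 or C12-T2. In normal colon none of the 40 was called, where 2.30% of all genes were, and 8 had an unadjusted p under 0.05 (limma). None of the 40 passed for the genotype by tissue interaction, where 4.03% of genes did, and 5 had an unadjusted p under 0.05 (limma).

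Some genes of the B lineage were at or near background. Pax5, the lineage-defining transcription factor, was above background on no array, with a highest level of 5.16, and Cr2, the complement receptor of follicular B and dendritic cells, on 1 array at most. Vpreb3 was above background on 1 array, WT-T2, at 7.59. Cd72, Lyn and Bank1 were not analysed here. The B cell label of the members thus rested on Cd79a, Cd79b, Cd22 and Blk among the defining markers, with Ms4a1 and Pax5 below background.

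Plasma cells end the B lineage and populate the normal colon. Of 6 tested plasma cell genes 0 were called in any comparison, with 0 to 2 at an unadjusted p under 0.05 (limma), and their median tumor minus normal difference was -0.64 in wild type and -0.25 in C12. Mzb1, a chaperone of immunoglobulin assembly, read 10.12 and 12.02 in WT-N, 8.54 and 9.31 in C12-N, 9.57 and 11.24 in WT-T, and 9.42 and 9.97 in C12-T. Its genotype difference of -1.43 (SE 0.51), averaged over both tissues, had a limma adjusted p of 0.0964.

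MHC class II genes are shared by B cells, dendritic cells and macrophages. Averaged over both tissues, 4 of 11 were lower in C12 and 0 higher, where 8.11% of all genes were lower and 6.96% higher (limma). These were H2-DMb2 (-1.73, SE 0.31, limma adjusted p = 0.0139), H2-Ob (-1.47, SE 0.33, limma adjusted p = 0.0252), H2-Oa (-1.44, SE 0.28, limma adjusted p = 0.0175) and H2-Eb2 (-0.95, SE 0.16, limma adjusted p = 0.0125). H2-DMb2, H2-Ob and H2-Eb2 were above background on the WT-T arrays alone and passed the filter through them, with both normal groups below background, so the count is not independent of the filter. H2-Oa and H2-Ob make the DO molecule, which modulates peptide loading and is found mostly in B cells. The abundant class II genes did not pass: H2-Aa differed by -0.33 (limma adjusted p = 0.432) and Cd74, the invariant chain, by -0.60 (limma adjusted p = 0.2). The count of 4 fell to 0 without C12-N2 and to 1 without WT-T1 or without WT-T2, where 8 of the 11 were tested.

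H2-Ob read 5.20 and 6.42 in WT-N, 5.09 and 5.02 in C12-N, 7.82 and 8.74 in WT-T, and 6.38 and 5.81 in C12-T. It was above background in WT-T alone, at least 3.58-fold above C12-T. H2-DMb2 read 5.49 and 6.56 in WT-N, 5.23 and 5.63 in C12-N, 7.77 and 8.77 in WT-T, and 5.29 and 5.51 in C12-T. It was at least 3.56-fold higher in WT-T than in C12-T (limma adjusted p = 0.00779 in tumors). Since H2-DMb2 passed the filter through the WT-T arrays alone, that p is not independent of the filter. Its C12-T arrays lay within the range of the normal arrays.

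Genes of the lymphoid stroma and its chemokines other than Cxcl13 had a median tumor difference of 0.69 in wild type and 0.71 in C12. In C12, 6 of 24 rose and 0 fell, where 9.43% of all genes rose and 10.5% fell (limma): Tnf (log2 difference 3.17, at least 3.19-fold), Clu (2.44), Icam1 (2.28), Vcam1 (1.71), Mfge8 (1.38) and Nfkb2 (0.86). Clu and Mfge8 are made by follicular dendritic cells but also by other cells. Ccl19, a chemokine of the T cell zone, read 5.40 and 6.38 in WT-N, 5.28 and 5.62 in C12-N, 7.68 and 9.52 in WT-T, and 6.74 and 7.20 in C12-T. Its differences did not pass in either genotype, with limma adjusted p of 0.3 and 0.113. Ccl21a and Ccl21b, near-identical copies that probes may not tell apart, differed by 0.73 and 0.83 in wild type and by 0.37 and 0.28 in C12, also without passing. Averaged over both tissues 1 of the 24 was called, Icam1, an adhesion molecule, which was higher in C12 by 1.07 (limma adjusted p = 0.0075).

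Of 7 genes listed for the follicle-associated epithelium 5 were tested, while Gp2 and Ccl20 did not pass the filter. Of the 5, 3 were higher in C12 than in wild-type tumors (Tnfaip2, Marcksl1 and Tnfrsf11b) and 0 lower. Over all genes 8.54% were higher and 9.09% lower (limma). Without Gp2 and Ccl20, whether this epithelium itself differed was not tested. The call of Tnfrsf11b held in 7 of 17 alternatives, over which its difference ran from 1.49 to 4.02, and in 2 of 8 with 1 array left out. Ccr6, the CCL20 receptor carried by B cells as well, read 5.91 and 7.97 in WT-N, 6.64 and 6.57 in C12-N, 9.21 and 9.81 in WT-T, and 7.97 and 8.62 in C12-T. Its group means were highest in WT-T, then C12-T, and its genotype difference of -0.77 did not pass (limma adjusted p = 0.251). Of the protein kinase C genes other than Prkcb, 3 of 4 fell in C12 tumors, Prkcz (-2.05), Prkca (log2 difference -1.92, at least 2.58-fold) and Prkcd (-0.92), where 10.5% of all genes fell (limma).

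Averaged over both tissues, no T cell or pan-leukocyte gene was called for genotype. Of 12 tested T cell genes 0 passed, with a median of 0.04, and of 6 pan-leukocyte genes 0 passed, with a median of -0.14. At an unadjusted p under 0.05 the counts were 1 of 12 and 0 of 6 (limma), and missing the threshold does not show that levels were equal between genotypes. In C12 tumors against normal colon the pan-leukocyte genes Coro1a, Laptm5 and Arhgdib rose, by 1.64 to 1.89, as did Ctla4 among the T cell genes, by 2.23. Within tumors Ctla4 was higher in C12 than in wild type by 1.25 (SE 0.32, limma adjusted p = 0.0359), a call that held in 8 of 16 alternatives and in 2 of 8 with 1 array left out.

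Markers of other tissue varied across the tumor arrays, some by group and others on single arrays. The mean level of 7 neutrophil genes, those tested of 11 listed, was 12.60 and 12.53 in C12-T against 9.15 and 7.43 in WT-T. In normal colon it was 9.29 and 8.56 in WT-N and 6.81 and 7.43 in C12-N. All 7 rose in C12 tumors against C12 normal colon, where 9.43% of all genes rose (limma). The mean of 10 squamous epithelium genes was 10.87 and 6.05 in WT-T and 11.12 and 12.98 in C12-T, with 6.00 to 6.66 in normal colon. The mean of 6 skeletal muscle genes was 12.81 on C12-T1 and 5.94 to 8.35 on the other arrays. The mean of 8 colon epithelium genes was 12.34 and 12.77 in C12-T and 13.30 to 13.78 elsewhere. The part of these in the members' lower C12-T values was not tested.

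**Figure D4:**
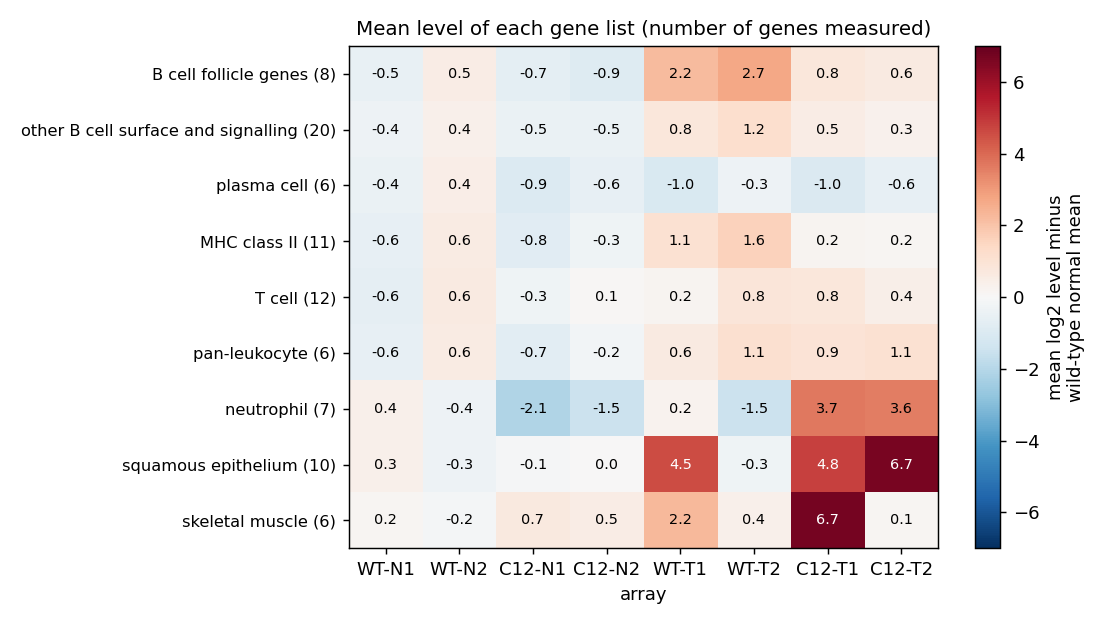
Each row is a gene list with its number of measured genes and each column an array; the number in a cell is the list's mean log2 level minus its mean over the WT-N arrays. The B cell follicle row is highest in WT-T (2.23 and 2.72) and lower in C12-T (0.79 and 0.65), whereas the neutrophil row is highest in C12-T (3.67 and 3.60).

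Each member followed the others closely across the 8 arrays, with a Pearson r between its values and the mean of the remaining members from 0.89 (Prkcb) to 0.99 (Cd22 and Blk). Among named genes outside the members, the 10 most like their mean profile were Tnfrsf13c (r = 0.988), H2-Ob (0.981), Hvcn1 (0.976), Rasgrp3 (0.975), Cnr2 (0.965), Cpsf4 (0.959), Lpxn (0.959), Btk (0.958), Btla (0.956) and Gpr183 (0.955). These correlations describe 8 arrays that share 4 groups, so they carry the group differences given above. When each array was left out in turn, Tnfrsf13c, H2-Ob, Hvcn1 and Rasgrp3 stayed among the 10 in all 8 rounds, Cnr2 in 6 and Btk in 5, and Btla and Gpr183 in 1 each. Hvcn1 codes for a voltage-gated proton channel, Rasgrp3 for an exchange factor for Ras in B cells, and Cnr2 for the cannabinoid receptor CB2. Hvcn1, for one, read 7.18 and 8.41 in WT-N, 7.09 and 7.47 in C12-N, 9.21 and 9.92 in WT-T, and 8.32 and 8.10 in C12-T, with C12-T within the range of WT-N.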

How the data were processed

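Total RNA of 8 samples was measured on Illumina bead arrays. As deposited, each array had an intensity per probe that was not normalised, with the detection p-value of that probe, per the file headers, and the submitters' processing notes name BeadStudio 3.2.7. The authors' series table was on a log2 scale. Its values equalled log2 of intensity divided by the mean of that array, with differences of at most 1.71e-05, and were used as an alternative.

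Intensities were normalised with neqc (limma 3.58.1, R 4.3.3, offset 16, negative controls inferred from the detection p-values). Probes above background (detection p under 0.01) on 2 or more of the 8 arrays entered 1 limma model of the 4 group means, two-sided, with Benjamini-Hochberg adjustment over all 13327 probes and a threshold of 0.05. The fit had 4 residual and 3.55 prior degrees of freedom. Each gene stood by the brightest of its tested probes, by mean. Of the probes, 23978 carried 1 symbol, 0 several and 1719 none. Precision is limited by the small number of arrays. The procedure was tested on simulated data.

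The members and the 17 lists were chosen with earlier results of these data known. From each list the text names called genes and those with the largest differences. The genes most like the members were taken by Pearson r. Gene names follow the platform annotation, updated through RefSeq. The alternatives were omitting background correction, raising the offset to 50, cyclic loess or median scaling, the deposited values, no filter, probes above background on all 8 arrays, array weights, a replicate block and leaving out each array.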

Additional observations from a re-analysis of the deposited data

Results flagged for a closer look

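None of the members had a tumor difference opposite in sign between the genotypes. In the B cell, lymphoid stroma, follicle-associated epithelium, T cell, pan-leukocyte and MHC class II lists, 3 genes passed the test of the genotype by tissue interaction, the C12 tumor minus normal difference less the wild-type one. H2-Eb2, an MHC class II gene, had an interaction of -1.80 (SE 0.33, limma adjusted p = 0.0334): it read 7.78 and 8.16 in WT-T against 6.10 and 6.15 in C12-T. H2-Eb2 was above background in WT-T alone and passed the filter through those arrays, so its call is not independent of the filter. Icam1 had an interaction of 1.64 (SE 0.31, limma adjusted p = 0.0369), with 11.44 and 11.16 in C12-T against 9.44 and 9.39 in WT-T. Marcksl1 had an interaction of 4.05 (SE 0.51, limma adjusted p = 0.0116), being lower in C12-N at 8.35 and 8.64 than in WT-N at 10.69 and 10.59, and higher in C12-T at 12.98 and 12.33. Leaving out 1 array at a time, the call for Marcksl1 held in 5 of 8 rounds, that for Icam1 in 1 of 8 and that for H2-Eb2 in 1 of the 6 that tested it.

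Of the 7 neutrophil genes 5 passed the same test, and of the 10 squamous epithelium genes 1 did. S100a8 had an interaction of 8.79 (SE 0.66, limma adjusted p = 0.00446), with 14.93 and 15.12 in C12-T against 10.71 and 9.50 in WT-T, and S100a9 one of 8.73 (SE 1.09, limma adjusted p = 0.0116). Retnlg had 6.69 (SE 0.59, limma adjusted p = 0.00486), Lcn2 had 5.51 (SE 0.87, limma adjusted p = 0.0216) and Csf3r had 2.84 (SE 0.60, limma adjusted p = 0.0465). Lor, of the squamous list, had 5.79 (SE 0.43, limma adjusted p = 0.00446), with 13.87 and 14.34 in C12-T against 7.29 and 6.82 in WT-T. With 1 array left out the calls of S100a8 and Lor held in 8 of 8 rounds, and that of Csf3r in 2.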

How the results depend on the processing

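With 2 arrays a group, and several members near background, the counts of calls moved easily. The count of members lower in C12 averaged over both tissues (6) was 0 among probes above background on all 8 arrays, where only 2 members were tested, and 1 to 6 with 1 array left out. Of other B cell genes, the 10 called in C12 tumors were 5 with no filter, 5 with array weights and 2 to 10 with 1 array left out. The 0 called between genotypes in normal colon became 1 with array weights and 1 with the replicate block. The 5 called between genotypes in tumors were 3 among probes above background on all arrays, 1 with array weights and 0 to 5 with 1 array left out. The 6 called averaged over both tissues were 3 in the deposited values and 0 to 4 with 1 array left out. The causes were not tested, apart from the fewer genes or arrays that some alternatives hold. The median of the members' tumor differences was 1.73 in wild type and 0.68 in C12 with no background correction, which leaves the background in both groups, and 1.86 to 2.88 in wild type with 1 array left out (2.88 without WT-N2).

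Over all genes, the 1408 called averaged over both tissues fell to 435 without WT-N1, 608 without WT-N2, 734 without C12-N1 and 396 without C12-N2. The 1860 called in C12 tumors fell to 578 without C12-N1, 531 without C12-N2 and 987 without C12-T1. The 0 called in wild-type tumors became 64 without WT-T2. In the same C12 comparison 47.4% of calls were rises, against 57.3% in the deposited values. The median of all genes, 0.00 in both tumor comparisons, was -0.14 and -0.10 (wild type and C12) with median scaling and 0.11 and 0.13 in the deposited values. None of the called genes of these lists, and neither median of the members' tumor differences, changed direction under these alternatives. Whether arrays with the same replicate number share an animal is not known. Deviations of same-numbered arrays correlated at -0.031 to 0.161 between groups, highest for C12-N with C12-T. Low values over all tested probes cannot exclude such pairing, and pairing by animal was not tested. The replicate block, 1 term shared by all arrays numbered 2, kept the 6 members called.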
